A study of Mus musculus with 6 samples.

Results

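The genes described here encode 4 families of axon guidance cues and their receptors, compared between 2 mouse cell lines. They are the rows of the gene table whose symbol is that of a class 3 to 7 semaphorin, a plexin, an Eph receptor, an ephrin, a Slit or a Robo, which gave 58 of 34724 rows that name a gene. RNA molecules were read directly, without copying to cDNA, on the Oxford Nanopore platform in 3 libraries of 2H-11, labelled tumor endothelial cells, and in 3 libraries of SVEC4-10, labelled normal endothelial cells. Per the labels, both lines are adult endothelial cells of strain C3H/HeJ from the axillary lymph node and both are SV40 transformed, so neither is untransformed. Each label is carried by 1 line, so a difference between 2H-11 and SVEC4-10 cannot be told apart from a difference between tumor and normal cells. The labels do not state whether replicate libraries derive from independent cultures; p-values thus reflect only library-to-library spread, part of which can be technical.

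Guidance cues steer growing axons and also migrating cells and sprouting vessels. Class 3 semaphorins are secreted and mostly act through neuropilin and plexin complexes, whereas Sema3e can bind Plexin-D1 directly; the other vertebrate classes are mainly held at the membrane. Ephrins are membrane ligands for Eph receptor tyrosine kinases and can themselves signal into the cell that carries them. In mouse vessels ephrin-B2 marks arterial and EphB4 venous endothelium. Slits are secreted ligands of Robo receptors, and Robo4 is known as an endothelial member.

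Upstream sequences are shown for 6 ligand and receptor genes that were all lower in 2H-11, so that what their start regions share in base composition and simple promoter motifs can be read. Each is the 250 bases before the RefSeq start on GRCm38.p6, 5′ to 3′ on the gene's strand, and lies outside the gene as GENCODE M21 annotates it. Capitals mark the GC box letters GGGCGG and the TATA box letters TATAAA on either strand.
Sema3d, chr5:12382916-12383165, + strand: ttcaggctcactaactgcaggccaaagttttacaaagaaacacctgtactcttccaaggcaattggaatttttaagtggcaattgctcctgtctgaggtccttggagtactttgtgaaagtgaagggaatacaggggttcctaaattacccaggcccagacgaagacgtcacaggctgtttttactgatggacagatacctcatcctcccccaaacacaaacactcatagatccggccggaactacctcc
Sema3e, chr5:14025026-14025275, + strand: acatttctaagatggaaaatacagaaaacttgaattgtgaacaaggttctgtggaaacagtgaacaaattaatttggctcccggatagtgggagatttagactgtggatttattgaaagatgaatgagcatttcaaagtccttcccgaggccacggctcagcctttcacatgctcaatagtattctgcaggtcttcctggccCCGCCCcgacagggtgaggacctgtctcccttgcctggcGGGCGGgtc
Efna5, chr17:62881318-62881567, - strand: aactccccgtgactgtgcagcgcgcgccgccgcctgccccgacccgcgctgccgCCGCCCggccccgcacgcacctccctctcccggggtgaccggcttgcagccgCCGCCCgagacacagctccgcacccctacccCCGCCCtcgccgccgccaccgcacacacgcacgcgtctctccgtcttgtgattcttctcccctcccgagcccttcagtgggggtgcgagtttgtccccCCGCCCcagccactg
Efnb1, chrX:99135811-99136060, + strand: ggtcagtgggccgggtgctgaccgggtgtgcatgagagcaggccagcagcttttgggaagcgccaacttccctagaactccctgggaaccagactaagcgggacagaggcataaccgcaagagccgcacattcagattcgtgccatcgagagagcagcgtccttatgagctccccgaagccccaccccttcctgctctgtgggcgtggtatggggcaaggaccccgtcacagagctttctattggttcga
Efnb2, chr8:8661243-8661492, - strand: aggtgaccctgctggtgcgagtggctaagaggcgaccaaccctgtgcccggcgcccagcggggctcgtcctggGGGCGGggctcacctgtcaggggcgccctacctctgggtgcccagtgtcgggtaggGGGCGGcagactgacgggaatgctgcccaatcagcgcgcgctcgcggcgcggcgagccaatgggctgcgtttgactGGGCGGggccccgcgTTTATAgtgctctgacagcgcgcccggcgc
Epha4, chr1:77515089-77515338, - strand: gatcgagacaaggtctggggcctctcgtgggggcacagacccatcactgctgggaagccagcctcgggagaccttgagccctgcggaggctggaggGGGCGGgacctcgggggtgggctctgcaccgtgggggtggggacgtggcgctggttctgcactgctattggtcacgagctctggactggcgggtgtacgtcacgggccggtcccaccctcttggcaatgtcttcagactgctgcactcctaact
The Sema3e window holds 2 GC boxes, the Efna5 window 4, the Efnb2 window 3 beside 1 TATA box, and the Epha4 window 1. No match to either set of letters is in the Sema3d and Efnb1 windows. Their GC content ranges from 46.8% upstream of Sema3d to 74.8% upstream of Efna5. RefSeq windows were found for 51 of the 58 members, and 32 windows of 30 genes lie outside the annotated gene. Of the 8 such windows of members lower in 2H-11, 6 hold a GC box, as do 3 of 4 windows of tested members that did not pass the threshold and 13 of 20 of members not tested. The GC box letters occur in 32.7% and the TATA box letters in 12.4% of all 32851 windows of this length.

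The libraries held 5375133, 4105369 and 5825968 counts in 2H-11 and 4278424, 3628400 and 16798666 counts in SVEC4-10. Levels are given as CPM, the count of a gene over the library's total count, scaled to 1000000, which are not divided by gene length and are compared between lines, not between genes. Of 20 pan-endothelial markers, 14 were under 1 CPM in every library and 9 had no count, among them Cldn5, Vwf and Robo4. Their summed level was 61.1 to 74.2 CPM in 2H-11 compared with 4.91 to 6.96 CPM in SVEC4-10. All 3 that were tested were higher in 2H-11: Ecscr averaged 47.7 CPM in 2H-11 compared with 0.092 CPM in SVEC4-10, Eng 9.61 CPM in 2H-11 compared with 2.45 CPM in SVEC4-10, and Egfl7 5.40 CPM in 2H-11 compared with 0.787 CPM in SVEC4-10, so Ecscr makes up most of the 2H-11 sum. Pecam1 had 1 count and Cdh5 had 2 in 2H-11, and both had 0 in SVEC4-10. The summed level of 12 mesothelial markers was 58.5 to 72.9 CPM in 2H-11 compared with 3421 to 4332 CPM in SVEC4-10. Gpm6a and Krt8 were at 0 counts in 2H-11. Of 8 tested, 7 were lower in 2H-11. Krt19 was higher, at 22.0 CPM in 2H-11 compared with 0.196 CPM in SVEC4-10. The summed level of 15 fibroblast and mural markers was 2483 to 3264 CPM in 2H-11 compared with 2474 to 2778 CPM in SVEC4-10. Of 13 tested, 9 were higher and 1 lower in 2H-11. Pdgfrb and Thy1 were at 0 counts in SVEC4-10. Dcn, the lower one, averaged 13.8 CPM in 2H-11 compared with 307 CPM in SVEC4-10. Of all genes tested, 16.2% were called lower and 20.1% higher in 2H-11. Markers of neurons and glia, cells in which guidance genes are best known, summed to 128 to 150 CPM in 2H-11 compared with 33.9 to 42.0 CPM in SVEC4-10, a sum led by Tubb3 in 2H-11. Of the 3 tested, Tubb3 was higher, at 130 CPM in 2H-11 compared with 8.90 CPM in SVEC4-10, while Map2, at 2.22 CPM in 2H-11 compared with 7.74 CPM in SVEC4-10, and Mbp, with 61 counts in 2H-11 compared with 563 counts in SVEC4-10, were lower. There was no count of Rbfox3, Snap25 or Gfap in any library, and 10 leukocyte markers stayed under 10 CPM in sum in every library. The mesothelial sum was lower in 2H-11, as was that of the guidance genes, and the endothelial and neuronal sums were higher; the part of these lists in the results was not tested. The 10 mitochondrially encoded genes summed to 18094 to 23090 CPM in 2H-11 compared with 14983 to 19986 CPM in SVEC4-10. In bulk RNA, fewer cells of a type and less RNA per cell cannot be told apart.

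SVEC4-10 replicate 2 stood apart by base composition. Across 10148 tested Ensembl genes, its log2 level against the mean of the other SVEC4-10 libraries fell with the GC content of the longest transcript (Pearson's r = -0.36, Spearman's rank correlation -0.38; a description across genes of shared libraries, not independent points). Among the members tested, all 12 with a GC content of 55% or more were below the mean of the other SVEC4-10 libraries in it. So were 7 of the 11 with less. Of the tested members, this library holds the lowest SVEC4-10 value of all but Sema3a, Sema3c, Sema3d, Epha2, Epha4 and Efna4. Those lowest in it include Sema4b, Sema4c, Plxna1, Plxnb2, Ephb4 and Slit3.

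**Figure D1:**
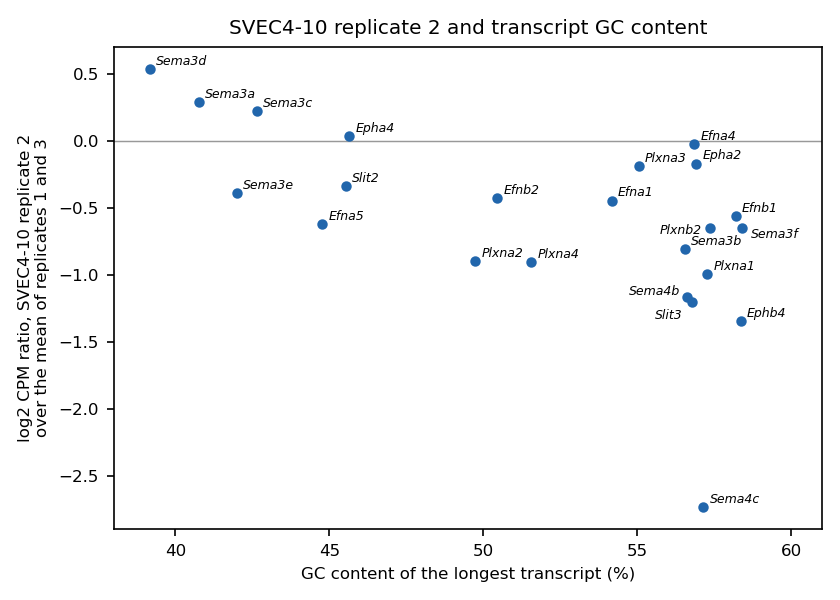
Log2 ratio of the level in SVEC4-10 replicate 2 to the mean of SVEC4-10 replicates 1 and 3, 0.5 CPM added (y), against the GC content of the longest transcript in percent (x), for each tested guidance gene, 1 point per gene. All 12 genes at 55% or more lie below the line at 0, and Sema4c lies lowest at -2.73.

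By mean summed level, the families did not all lie on 1 side. Their mean summed level was lower in 2H-11 by 7.43-fold for the class 3 semaphorins, 6.02-fold for the B-type ephrins, 4.2-fold for the Slits, 2.12-fold for the A-type ephrins, 1.95-fold for the EphA receptors and 1.53-fold for the plexins. It was higher in 2H-11 by 3.83-fold for the Robos, 1.29-fold for the EphB receptors and 1.28-fold for the class 4 to 7 semaphorins. The plexins, EphB receptors and class 4 to 7 semaphorins overlapped between the lines. For the class 4 to 7 semaphorins, SVEC4-10 replicate 2 had 3.31 CPM, compared with 12.4 and 12.7 CPM in replicates 1 and 3. For the EphB receptors it had 4.96 CPM, compared with 11.5 and 7.98 CPM. The Robo sums were at most 1.95 CPM in any library. Summed over all 58 members, the level was 218, 191 and 183 CPM in 2H-11 compared with 540, 409 and 508 CPM in SVEC4-10, with no overlap. The 31 ligand genes summed to 68.9 CPM in 2H-11 compared with 291 CPM in SVEC4-10 on average, and the 27 receptor genes to 129 CPM in 2H-11 compared with 195 CPM in SVEC4-10. Because a library's sum is led by its most abundant members, the families are also given gene by gene. Identifiers in brackets are Ensembl genes, with the span of the whole gene on GRCm38 as annotated in GENCODE M21.

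**Figure D2:**
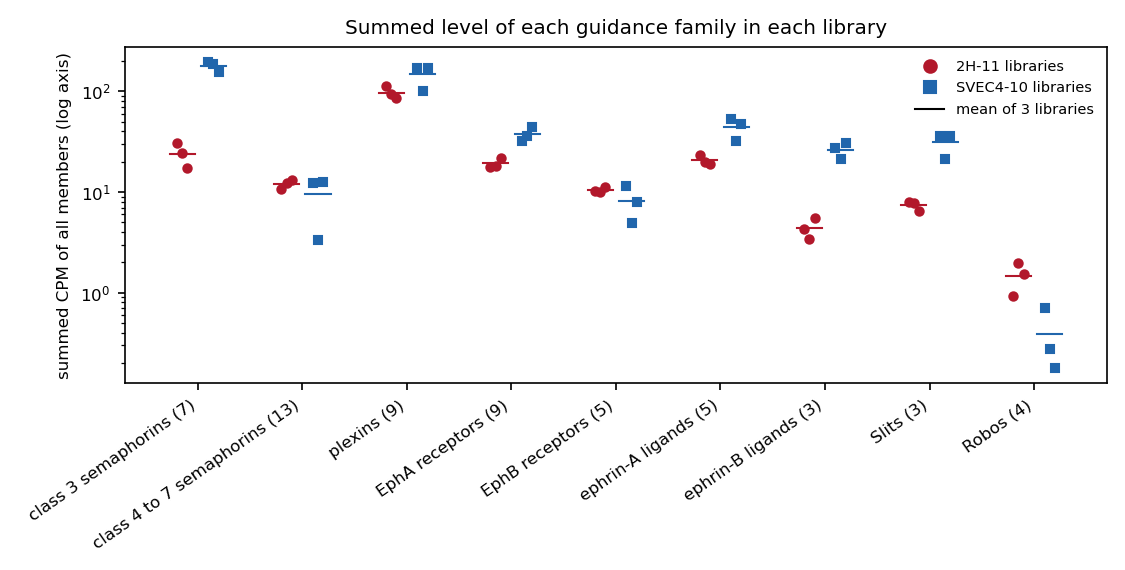
Summed CPM of all members of each family (log axis) in each library, 2H-11 as circles left of SVEC4-10 as squares, with bars at the mean of 3 libraries and the number of genes in brackets. All 2H-11 libraries lie below all SVEC4-10 libraries for the class 3 semaphorins, EphA receptors, both ephrin types and Slits, the class 4 to 7 semaphorins, plexins and EphB receptors overlap, and the Robos lie at 0.93 to 1.95 CPM in 2H-11 compared with 0.179 to 0.701 CPM in SVEC4-10.

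Of the 58 members, 23 had enough counts to be tested with edgeR's quasi-likelihood test, and adjusted p values are Benjamini-Hochberg values from that fit over 13187 genes, with a threshold of 0.05. Of these 23, 14 were lower in 2H-11 and 1 was higher, against 16.2% of all genes tested called lower, 20.1% called higher and 36.2% called in either direction; 8 did not pass. All members are Ensembl rows, of which 18.8% of those tested were called lower and 13% higher. A gene that passed the filter only through its high line was kept in part because its lines differ. The counts of tested members and their median are thus a description and not support. The median log2 fold change of the tested members, 2H-11 over SVEC4-10, was -1.27, beside 0.00 for all genes tested and -0.10 for the Ensembl genes among them. Over all 58 members and with no filter, every 2H-11 library was below every SVEC4-10 library for 17 genes and above for 10, where all 22036 Ensembl rows gave 11.9% and 12.9%. Another 9 members had no count in any library, namely Sema5b, Sema6a, Plxnc1, Epha6, Epha8, Epha10, Ephb1, Robo2 and Robo4. A gene with 0 counts could still have had a level of up to 3 counts in the pooled libraries. That equals 0.196 CPM over the 2H-11 pool and 0.121 CPM over the SVEC4-10 pool. Such limits cover counting error alone, and only that of the line at 0 counts. The bounds made from them take the mean level of the other line as exact.

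**Figure D3:**
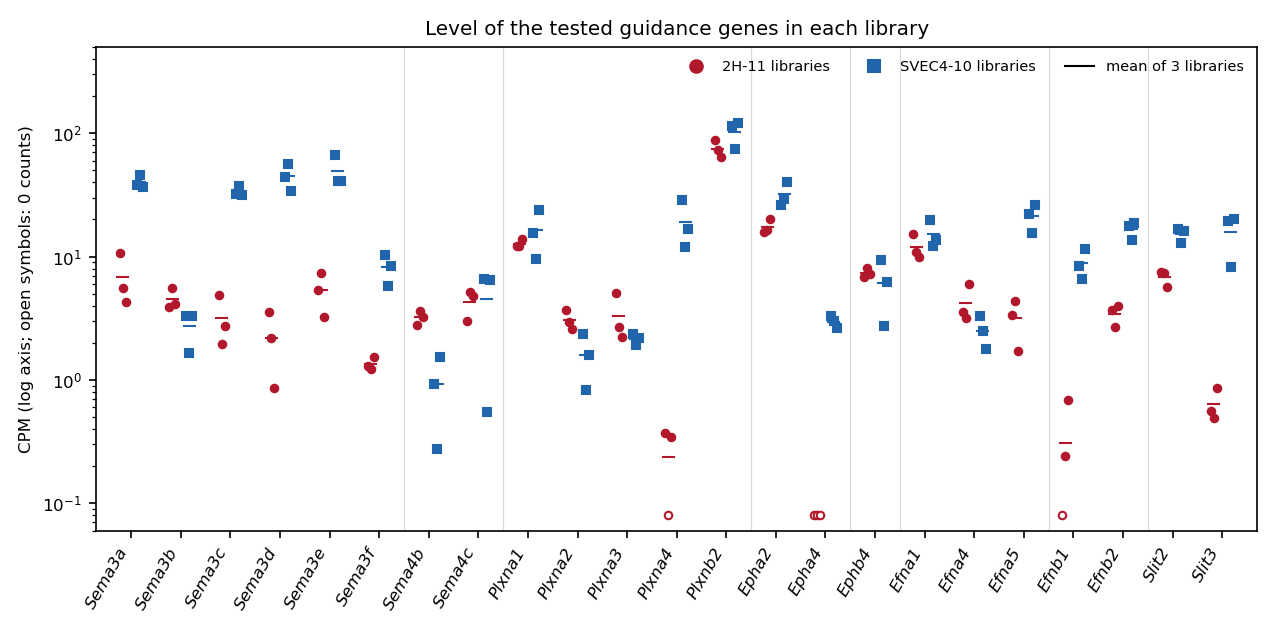
CPM of each tested guidance gene (log axis) in each library, 2H-11 as circles left of SVEC4-10 as squares, bars at the mean of 3 libraries, open symbols for 0 counts. Epha4 has 3 open circles in 2H-11, and Plxnb2 overlaps between the lines at 64.4 to 88.2 CPM in 2H-11 compared with 74.4 to 120 CPM in SVEC4-10.

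Of the class 3 semaphorins, 5 of the 6 members tested were lower in 2H-11 and none was higher. Their summed level was 30.7, 24.4 and 17.3 CPM in 2H-11 compared with 195, 188 and 155 CPM in SVEC4-10, a mean 7.43-fold lower in 2H-11. Sema3a (ENSMUSG00000028883, chr5:13125414-13602565, + strand), the founding growth-cone-collapsing semaphorin, had 10.6, 5.6 and 4.29 CPM in 2H-11 compared with 37.9, 45.5 and 36.5 CPM in SVEC4-10. It was 6.23-fold lower in 2H-11 (log2 fold change -2.64, SE 0.29, adjusted p = 8.43e-07), and all 3 2H-11 libraries lay below all 3 SVEC4-10 libraries. Sema3c (ENSMUSG00000028780, chr5:17574281-17730268, + strand), a cue in cardiac outflow tract development, had 4.84, 1.95 and 2.75 CPM in 2H-11 compared with 32.3, 37.2 and 31.4 CPM in SVEC4-10. That is 11-fold lower in 2H-11 (log2 fold change -3.46, SE 0.30, adjusted p = 4.17e-08).

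Sema3d (ENSMUSG00000040254, chr5:12383385-12588948, + strand), a paralog needed for pulmonary vein patterning in mouse, had 3.53, 2.19 and 0.858 CPM in 2H-11 compared with 43.9, 56.8 and 34 CPM in SVEC4-10. It was 21.9-fold lower in 2H-11 (log2 fold change -4.45, SE 0.36, adjusted p = 1.73e-08), and 32.9-fold lower without 2H-11 replicate 1. The groups did not overlap, and 2H-11 replicate 3 was the lowest. Sema3e (ENSMUSG00000063531, chr5:14025276-14256689, + strand), the ligand of Plexin-D1, had 5.40, 7.31 and 3.26 CPM in 2H-11 compared with 66.8, 41.1 and 41.1 CPM in SVEC4-10. It was 10.1-fold lower in 2H-11 (log2 fold change -3.33, SE 0.29, adjusted p = 4.05e-08), and its ranges lay far apart.

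Sema3f (ENSMUSG00000034684, chr9:107681500-107710475, - strand), a neuropilin-2 ligand, had 1.30, 1.22 and 1.54 CPM in 2H-11 compared with 10.3, 5.79 and 8.39 CPM in SVEC4-10. It was 6.29-fold lower in 2H-11 (log2 fold change -2.65, SE 0.38, adjusted p = 1.77e-05), without overlap. Sema3b, also a neuropilin ligand, did not pass the threshold, and its values lay higher in 2H-11. It had 3.91, 5.6 and 4.12 CPM in 2H-11 compared with 3.27, 1.65 and 3.27 CPM in SVEC4-10 (adjusted p = 0.254; log2 fold change 0.56, SE 0.37), again with no overlap. Sema3g averaged 0.706 CPM in 2H-11 compared with 0.336 CPM in SVEC4-10, on 11 and 14 counts, with overlap, and was not tested.

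Semaphorins of classes 4 to 7 were low in both lines, at a summed 10.6, 12.4 and 13.2 CPM in 2H-11 compared with 12.4, 3.31 and 12.7 CPM in SVEC4-10. Only 2 of the 13 were tested. Sema4b (ENSMUSG00000030539, chr7:80186841-80226527, + strand), a transmembrane semaphorin, had 2.79, 3.65 and 3.26 CPM in 2H-11 compared with 0.935, 0.276 and 1.55 CPM in SVEC4-10. It was the 1 member called higher in 2H-11, by 2.66-fold (log2 fold change 1.41, SE 0.45, adjusted p = 0.0189), and the groups did not overlap. Its count was 49 in 2H-11 and 31 in SVEC4-10. The call was lost with DESeq2 (adjusted p = 0.058), without 2H-11 replicate 2 (0.071) or 3 (0.051) and without SVEC4-10 replicate 1 (0.070) or 2 (0.084), and the fold was 4.57 without SVEC4-10 replicate 3. The adjusted p ranged from 0.011 to 0.084 over the alternatives that could test it; with thinned counts or 20 counts required in 3 libraries it had too few counts.

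Sema4c, a ligand of Plexin-B2, had 2.98, 5.12 and 4.81 CPM in 2H-11 compared with 6.54, 0.551 and 6.43 CPM in SVEC4-10, where replicate 2 alone was low. Its log2 fold change was -0.26 (SE 0.48, adjusted p = 0.718), and it was 0.12 without SVEC4-10 replicate 3. Sema6d, a membrane ligand of Plexin-A1, had no count in 2H-11 and 2.80, 1.10 and 2.98 CPM in SVEC4-10. It was not tested with the filter; the bound from the limit of counting is at least 11.7-fold lower in 2H-11, or 7.60 and 7.25 without 2H-11 replicates 1 and 3. Sema5a, a transmembrane semaphorin with thrombospondin repeats, had 2.05, 1.71 and 0.687 CPM in 2H-11 compared with 0.467, 0.551 and 0.655 CPM in SVEC4-10, and every 2H-11 library was above every SVEC4-10 library. The rest of these semaphorins had at most 12 counts in 2H-11 and at most 19 in SVEC4-10.

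Among the plexins, the receptors of semaphorins, 2 of 5 tested were lower in 2H-11 and none was higher. Plxna4 (ENSMUSG00000029765, chr6:32144268-32588192, - strand), which with neuropilin-1 transduces Sema3a in mouse neurons, had 0.372, 0 and 0.343 CPM in 2H-11 compared with 28.5, 11.9 and 16.7 CPM in SVEC4-10. It was 71.6-fold lower in 2H-11 (log2 fold change -6.16, SE 0.52, adjusted p = 3.03e-08) on 4 counts in 2H-11 and 446 in SVEC4-10, with no overlap. Plxnb2 (ENSMUSG00000036606, chr15:89155549-89180788, - strand), a receptor of class 4 semaphorins, had 88.2, 72.6 and 64.4 CPM in 2H-11 compared with 114, 74.4 and 120 CPM in SVEC4-10. It was 1.46-fold lower in 2H-11 (log2 fold change -0.55, SE 0.20, adjusted p = 0.037), and its ranges overlap. That call was lost with scaling by library total alone (adjusted p = 0.098), thinned counts (0.057), Ensembl rows only (0.069), and without 2H-11 replicate 2 (0.122) or 3 (0.095) or SVEC4-10 replicate 1 (0.060) or 3 (0.135). Over all alternatives the adjusted p ranged from 0.00798 to 0.135.

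Plxna1 (ENSMUSG00000030084, chr6:89316314-89362620, - strand), a co-receptor for class 3 semaphorins, had 12.1, 12.2 and 13.9 CPM in 2H-11 compared with 15.7, 9.65 and 23.7 CPM in SVEC4-10. The groups overlap, and the log2 fold change of -0.49 (SE 0.29) did not pass (adjusted p = 0.194), but without SVEC4-10 replicate 2 it did (-0.77, adjusted p = 0.037). Plxna2 had 3.72, 2.92 and 2.57 CPM in 2H-11 compared with 2.34, 0.827 and 1.61 CPM in SVEC4-10 and did not pass (log2 fold change 0.83, adjusted p = 0.125). With GC and length trends removed, an alternative chosen after seeing the data, its adjusted p was 0.028. Plxna3 had 2.23 to 5.02 CPM in 2H-11 compared with 1.93 to 2.34 CPM in SVEC4-10 and did not pass (adjusted p = 0.347). Plxnd1, the receptor of Sema3e, had 2.05, 2.19 and 2.40 CPM in 2H-11 compared with 1.40, 0.827 and 1.61 CPM in SVEC4-10 and was not tested; its 2H-11 libraries were all the higher ones.

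Plxnb1, the receptor of Sema4d, had 0.558, 0.731 and 0.687 CPM in 2H-11 compared with 6.78, 1.93 and 4.35 CPM in SVEC4-10. Plxnb3 had no count in 2H-11 and 1.17, 0.551 and 1.37 CPM in SVEC4-10, a bound of at least 5.25-fold lower in 2H-11, or 3.41 and 3.25 without 2H-11 replicates 1 and 3. Neither had enough counts for the filter. For the neuropilins, named after their values were seen, Nrp1 averaged 19.9 ± 6.65 CPM in 2H-11 compared with 7.34 ± 3.51 CPM in SVEC4-10 (SD, n = 3 libraries each), 2.34-fold higher in 2H-11 (adjusted p = 0.00689). Nrp2 averaged 19.8 ± 0.963 CPM in 2H-11 compared with 14.8 ± 5.08 CPM in SVEC4-10 and did not pass (adjusted p = 0.394).

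**Figure D4:**
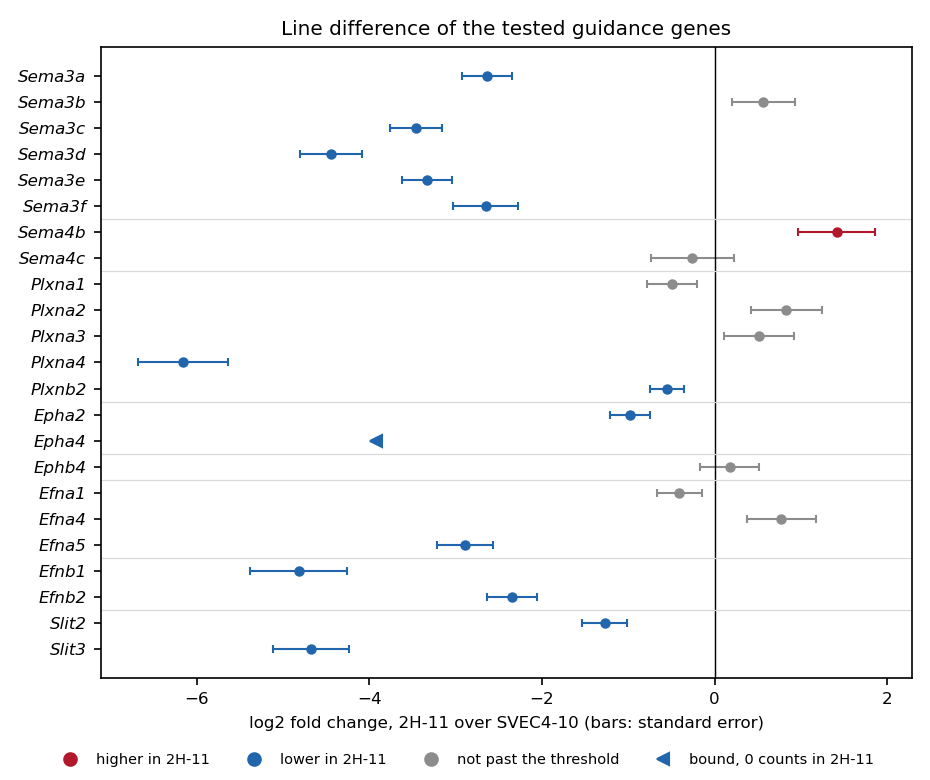
Log2 fold change of each tested guidance gene, 2H-11 over SVEC4-10 (x), with bars for the standard error from edgeR; blue is lower and red higher in 2H-11, grey did not pass, and the triangle is the bound for Epha4 with 0 counts in 2H-11. Of 23 genes, 14 are blue and 1 is red, and Plxna4 lies farthest left at -6.16.

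Ephrins, the ligands of Eph receptors, were lower in 2H-11 for 1 of 3 tested A-type members and for both tested B-type members. Efna5 (ENSMUSG00000048915, chr17:62604184-62881317, - strand), a glycosylphosphatidylinositol-anchored ligand, had 3.35, 4.38 and 1.72 CPM in 2H-11 compared with 22, 15.4 and 26.1 CPM in SVEC4-10. It was 7.43-fold lower in 2H-11 (log2 fold change -2.89, SE 0.33, adjusted p = 1.22e-06), and the groups did not overlap. Efna1 (ENSMUSG00000027954, chr3:89271733-89281142, - strand), a ligand of EphA2, had 15.3, 11 and 9.96 CPM in 2H-11 compared with 19.9, 12.1 and 13.5 CPM in SVEC4-10. Its ranges overlap and its log2 fold change of -0.41 did not pass (adjusted p = 0.243). Efna4, of the same anchored type, had 3.53, 3.17 and 6.01 CPM in 2H-11 compared with 3.27, 2.48 and 1.79 CPM in SVEC4-10 (log2 fold change 0.77, adjusted p = 0.149). Efna2 had 0.93, 1.46 and 1.20 CPM in 2H-11 compared with 7.48, 1.38 and 6.25 CPM in SVEC4-10, where replicate 2 was low, and was not tested.

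Efnb1 (ENSMUSG00000031217, chrX:99136130-99148991, + strand), a transmembrane ephrin, had 0, 0.244 and 0.687 CPM in 2H-11 compared with 8.41, 6.61 and 11.6 CPM in SVEC4-10. It was 28.2-fold lower in 2H-11 (log2 fold change -4.82, SE 0.56, adjusted p = 1.68e-06) on 5 counts in 2H-11 and 255 in SVEC4-10. Without 2H-11 replicate 3, 1 count was left in 2H-11, and the ratio of summed levels was 97.9-fold lower in 2H-11 with a 95% counting interval from 17.4 to 3880. Efnb2 (ENSMUSG00000001300, chr8:8617434-8661242, - strand), the arterial ephrin, had 3.72, 2.68 and 3.95 CPM in 2H-11 compared with 17.8, 13.5 and 18.8 CPM in SVEC4-10. It was 5.11-fold lower in 2H-11 (log2 fold change -2.35, SE 0.29, adjusted p = 3.44e-06), and the groups did not overlap. Efnb3 averaged 0.635 CPM in 2H-11 compared with 0.858 CPM in SVEC4-10, on 10 and 17 counts, with overlap.

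In the Eph receptor family, both tested A-type members were lower in 2H-11, and the 1 tested B-type member did not pass. Epha2 (ENSMUSG00000006445, chr4:141301240-141329384, + strand), an EphA receptor also found in epithelial and tumor cells, had 15.8, 16.3 and 20.1 CPM in 2H-11 compared with 26.4, 29.5 and 40 CPM in SVEC4-10. It was 1.98-fold lower in 2H-11 (log2 fold change -0.98, SE 0.23, adjusted p = 0.0028). Epha4 (ENSMUSG00000026235, chr1:77367185-77515088, - strand), a receptor for both ephrin classes, had no count in 2H-11 and 3.27, 3.03 and 2.62 CPM in SVEC4-10, at least 15.2-fold lower in 2H-11 (adjusted p = 9.44e-06), or 9.85 and 9.40 without 2H-11 replicates 1 and 3. Neither gene's groups overlapped. With thinned counts or 20 counts required in 3 libraries, Epha4 had too few counts to be tested. Epha7 had no count in 2H-11 and 2.57, 2.76 and 1.73 CPM in SVEC4-10, a bound of at least 12-fold lower in 2H-11 (7.78 and 7.43 without 2H-11 replicates 1 and 3); it was not tested. Epha1 lay the other way, with 1.67, 1.95 and 1.89 CPM in 2H-11 compared with 0, 0.276 and 0.238 CPM in SVEC4-10, and was not tested.

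Ephb4, the venous receptor of ephrin-B2, had 6.88, 8.04 and 7.21 CPM in 2H-11 compared with 9.35, 2.76 and 6.19 CPM in SVEC4-10. Its log2 fold change of 0.17 (SE 0.34) did not pass (adjusted p = 0.736), and it was -0.14 without SVEC4-10 replicate 2. Ephb2 had 1.67, 1.22 and 1.54 CPM in 2H-11 compared with 0.935, 0.827 and 0.357 CPM in SVEC4-10, every 2H-11 library being the higher. Ephb3 averaged 1.43 CPM in 2H-11 compared with 1.00 CPM in SVEC4-10, on 23 and 28 counts, with overlap.

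Both tested Slits were lower in 2H-11. Slit2 (ENSMUSG00000031558, chr5:47983138-48307733, + strand), the best known Slit repellent, had 7.44, 7.31 and 5.66 CPM in 2H-11 compared with 16.8, 13 and 16.2 CPM in SVEC4-10. It was 2.42-fold lower in 2H-11 (log2 fold change -1.27, SE 0.26, adjusted p = 0.000739), without overlap. Slit3 (ENSMUSG00000056427, chr11:35121224-35708507, + strand), its paralog, had 0.558, 0.487 and 0.858 CPM in 2H-11 compared with 19.4, 8.27 and 20 CPM in SVEC4-10. It was 25.6-fold lower in 2H-11 (log2 fold change -4.68, SE 0.44, adjusted p = 1.29e-07) on 10 counts in 2H-11 and 449 in SVEC4-10, with no overlap. Slit1 had 0 counts in 2H-11 and 1 in SVEC4-10.

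Robo receptors were near the floor. Robo1, a main Slit receptor, had 0.744, 1.46 and 1.03 CPM in 2H-11 and no count in SVEC4-10, a bound of at least 8.88-fold higher in 2H-11, or 2.84 without SVEC4-10 replicate 3, and it was not tested. Robo3 averaged 0.396 CPM in 2H-11 compared with 0.385 CPM in SVEC4-10, on 6 and 7 counts.

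Of the 26 members that had a count but did not pass the filter, the fit with no filter called 4 higher and 5 lower in 2H-11, where 14.7% of 26293 genes were called higher and 11.9% lower. The higher ones were Epha1 (adjusted p = 0.000815), Robo1 (0.000302), Sema4d (0.041) and Sema6b (0.028). The lower ones were Efna2 (5.30e-06), Epha7 (4.17e-08), Plxnb1 (7.38e-07), Plxnb3 (0.000122) and Sema6d (5.22e-09). Efna2 is the 1 lower gene among these whose groups overlap. The other 17 were not called.

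**Figure D5:**
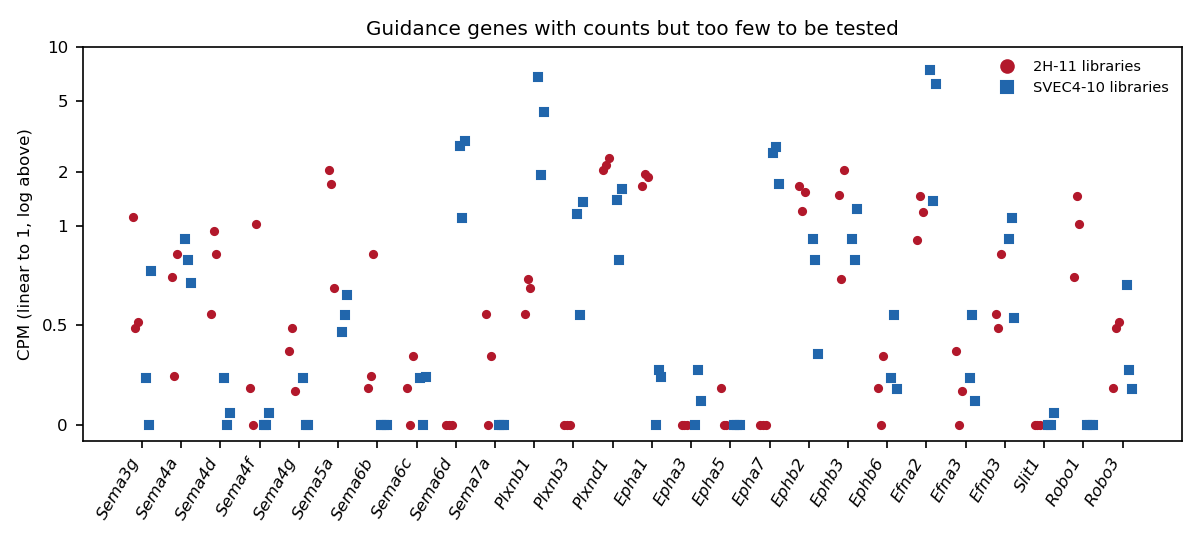
CPM (linear to 1, log above) in each library of the 26 guidance genes with counts but too few to be tested, 2H-11 as circles left of SVEC4-10 as squares. Sema6d, Plxnb3 and Epha7 sit at 0 in all 2H-11 libraries and Robo1 at 0 in all SVEC4-10 libraries.

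The partners and effectors of these families did not lie on 1 side. Over 77 genes listed, 51 were tested, of which 8 were higher and 15 lower in 2H-11 and 28 did not pass (background 20.1% and 16.2% of all genes tested, 13% and 18.8% of the Ensembl rows, to which all these partners belong). Among 22 tested semaphorin and plexin partners, 4 were higher and 6 lower. Dpysl3, a CRMP family protein downstream of semaphorins, averaged 58.3 ± 1.76 CPM in 2H-11 compared with 3.66 ± 0.334 CPM in SVEC4-10, 14.8-fold higher in 2H-11 (adjusted p = 3.8e-10). Rnd3, a protein of the plexin pathway, averaged 28.1 ± 7.11 CPM in 2H-11 compared with 97.1 ± 8.69 CPM in SVEC4-10, 3.72-fold lower (adjusted p = 1.2e-06). Mical2, an actin-oxidising enzyme, averaged 18.2 ± 4.05 CPM in 2H-11 compared with 54 ± 1.68 CPM in SVEC4-10, 3.16-fold lower (adjusted p = 5.89e-06). These 3 had the smallest p of their list, and Arhgef12, which binds B-type plexins and had the highest CPM of the list averaged over both lines, had a mean of 83 ± 3.4 CPM in 2H-11 compared with 80.6 ± 19.1 CPM in SVEC4-10 (adjusted p = 0.882).

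Of 15 tested Eph and ephrin partners, 2 were higher and 4 lower, beside 13% and 18.8% of all tested Ensembl rows. Pdzrn3, a ubiquitin ligase, averaged 10.9 ± 2.26 CPM in 2H-11 compared with 2.63 ± 0.655 CPM in SVEC4-10, 3.8-fold higher (adjusted p = 0.000156). Vav2, a guanine nucleotide exchange factor, averaged 7.22 ± 1.46 CPM in 2H-11 compared with 20.6 ± 8.34 CPM in SVEC4-10, 3.04-fold lower (adjusted p = 0.000392). Sipa1l1, a GTPase-activating protein for Rap, averaged 9.29 ± 1.99 CPM in 2H-11 compared with 16.9 ± 1.6 CPM in SVEC4-10, 1.97-fold lower (adjusted p = 0.00512). Sdcbp (syntenin), a PDZ adaptor with the highest CPM of the list, averaged 257 ± 52.7 CPM in 2H-11 compared with 216 ± 43 CPM in SVEC4-10 (adjusted p = 0.591); its adjusted p was 0.027 with GC and length trends removed.

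Among 10 tested Slit and Robo partners, 2 were higher and 2 lower, where all tested Ensembl rows gave 13% and 18.8%. Flrt3, a transmembrane protein that binds Unc5 receptors and Robo1, had no count in 2H-11 and 14.3, 25.4 and 23.1 CPM in SVEC4-10, at least 107-fold lower in 2H-11 (adjusted p = 1.51e-08), or 69.2 and 66.1 without 2H-11 replicates 1 and 3. Pak1, a kinase under Rac and Cdc42, averaged 25.2 ± 4.06 CPM in 2H-11 compared with 3.14 ± 1.66 CPM in SVEC4-10, 6.72-fold higher (adjusted p = 2.36e-06). Gpc1, a glypican, averaged 17.6 ± 2.69 CPM in 2H-11 compared with 3.16 ± 1.3 CPM in SVEC4-10, 4.75-fold higher (adjusted p = 1.32e-05). Vasp, an actin regulator with the highest CPM of the list, averaged 26.3 ± 5.45 CPM in 2H-11 compared with 24.9 ± 7.56 CPM in SVEC4-10 (adjusted p = 0.958). Netrin, repulsive guidance molecule and Unc5 genes numbered 18, of which 4 were tested; 3 were lower in 2H-11 and none was higher. Unc5b, a netrin receptor also found on endothelial cells, averaged 33.4 ± 6.01 CPM in 2H-11 compared with 95.4 ± 37.8 CPM in SVEC4-10, 3.04-fold lower (adjusted p = 5.69e-05). Flrt2, an Unc5 ligand, averaged 2.57 ± 0.468 CPM in 2H-11 compared with 8.8 ± 1.74 CPM in SVEC4-10, 3.67-fold lower (adjusted p = 0.000179). Rgmb, a neogenin ligand, averaged 1.86 ± 0.886 CPM in 2H-11 compared with 3.98 ± 1.39 CPM in SVEC4-10, 2.3-fold lower (adjusted p = 0.035), a call lost with DESeq2 (0.087), scaling by library total alone (0.054), without 2H-11 replicate 1 (0.055) or 2 (0.170) and without SVEC4-10 replicate 3 (0.202).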

How the data were processed

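RNA was taken with Trizol, and 1 ug per library was prepared with the Direct RNA Sequencing Kit, per the labels' protocols; builds mm10 and GRCm38 are named in the submitters' processing notes. The aligner, counter, annotation and use of strand are not stated in these sources, so reads of overlapping antisense genes cannot be told apart. The authors deposited raw counts per gene and the same counts as CPM; 13 broken lines were dropped. The authors' own fold changes were not used.

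Counts were tested with edgeR 4.0.16 in R 4.3.3 (filterByExpr, minimum count 10 and total 15; TMM; line as the only term; Benjamini-Hochberg over 13187 genes). SE is the log2 fold change over the square root of F. Tested on simulated data for 2H-11 against SVEC4-10 on 13187 genes with 50 genes changed at each fold, the test called 14% of genes changed 1.5-fold. The share was 46% at 2-fold, 96% at 4-fold and 94% at 8-fold, and of 129 calls, 4 were false. The changed genes were drawn from those above 2 CPM on average, so these shares do not cover rarer members. Simulated spread was set by a gene's level alone, and the low GC-rich transcripts of SVEC4-10 replicate 2 were not simulated. Members and partner and marker lists were chosen with earlier results of these data known. Values per library are given for members past the threshold or at 10 CPM or more in either line. They are also given for some other members, which were picked outside this rule. From each partner list the 3 smallest p and the gene with the highest mean CPM over both lines are named. GENCODE M21 gave coordinates for all 58 members, and RefSeq on GRCm38.p6 gave the sequences. Alternatives tried were the replicate number as a block, DESeq2 1.42.0, limma 3.58.1, other scalings and filters, thinned counts, Ensembl rows, and leaving out each library.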

Additional observations from a re-analysis of the deposited data

How the results depend on the processing

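Limits: 3 libraries per line, of unstated independence, and total counts that differ up to 4.63-fold set what could be called. Changes of 2-fold were recovered in 46% of simulated cases, which were drawn from genes above 2 CPM on average. Of 360 pairs of a tested member and an alternative, 342 kept direction and side of the threshold, 13 lost the threshold, 2 passed it and 3 changed sign. Another 8 pairs could not be tested. The members lower in 2H-11 numbered 12 to 19 over the alternatives other than leaving out a library, and 14 to 18 when leaving out each. The count of members higher, 1 as reported, was 0 with DESeq2, 0 with 20 counts required in 3 libraries, 0 with counts thinned to the smallest library, 5 with no filter and 2 with GC and length trends removed, the last chosen after seeing the data; it ranged from 0 to 1 when leaving out each library. Over all genes, 2645 were higher and 2133 lower as reported, against 1657 higher with Ensembl rows only and 1209 lower with at least a 2-fold change required. No filter gave 3854 higher and 3117 lower.

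The same replicate numbers in the 2 lines did not pair the libraries: deviations of same-numbered libraries correlated at -0.013, 0.052 and -0.0028. With the number as a replicate block, 13 members were lower and 1 was higher, 1970 genes lower and 2491 higher; the member that lost its call was Plxnb2 (log2 fold change -0.53, adjusted p = 0.061).

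Values that changed sign, none past the threshold, were as follows. Thinned counts gave 0.17 for Sema4c, 0.0076 for Arhgef12 and -0.025 for Vasp. Arhgef12 was 0.045 with library total alone, 0.054 with Ensembl rows only and 0.11 with GC and length trends removed; Vasp was -0.059 with no filter and -0.013 with those trends removed. When leaving out each library, the log2 fold change ranged from -0.71 to 0.12 for Sema4c, -0.14 to 0.43 for Ephb4, -0.22 to 0.041 for Arhgef12, -0.011 to 0.31 for Sdcbp and -0.28 to 0.14 for Vasp. The cause was not tested.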

Other observations

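Sema3d, Sema3a, Sema3e and Sema3c lie in that order on chromosome 5 of GRCm38, between 12383385 and 17730268, with Sema3d at the low end. Of the 21 listed genes that GENCODE M21 places in this interval, 12 had no count and 5 were tested. Those 5 are the 4 semaphorins, all lower in 2H-11, and Cacna2d1, a calcium channel subunit named after its values were seen. Cacna2d1 averaged 3.56 ± 0.837 CPM in 2H-11 compared with 1.06 ± 0.321 CPM in SVEC4-10 (SD, n = 3 libraries each), with a log2 fold change of 1.49 (SE 0.42, adjusted p = 0.00872 from edgeR). Its adjusted p was 0.0502 without 2H-11 replicate 2. The remaining genes with counts were not tested. Gm21149 averaged 0 CPM in 2H-11 compared with 3.32 CPM in SVEC4-10, and Speer3 0.062 CPM in 2H-11 compared with 0.375 CPM in SVEC4-10. Hgf lay the other way, at 1.07 CPM in 2H-11 compared with 0.020 CPM in SVEC4-10. So did Gm28710, at 0.119 CPM in 2H-11 compared with 0 CPM in SVEC4-10.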
